A study of Homo sapiens with 6 samples.

Results

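The genes described here are 39 regulators and direct targets of the tumour suppressor p53, found in the count table by gene symbol among 58051 genes. They are the feedback inhibitors MDM2, MDM4 and PPM1D and 36 target genes of cell cycle arrest, DNA repair, apoptosis, metabolism and other roles. The members were chosen by their symbols, with the fitted differences between ppk1 and empty vector from an earlier pass over these data in view. The differences given for them are therefore a description, and counts of members called are not independent evidence. All 39 symbols matched 1 row each.

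RNA was sequenced after poly(A) selection from HEK293T cells, an established line from human embryonic kidney into which SV40 large T antigen was introduced, 48 hours after transient transfection. The empty vector group (3 libraries, B, C and D) received the plasmid pcDNA3.1-, and the ppk1 group (3 libraries, B, C and D) received the same plasmid with ppk1, which codes for a polyphosphate kinase from bacteria that makes long polyphosphate chains. Libraries of the same letter are matched biological replicates. Both groups came from cells at 5 to 10 passages and carry large T antigen, and the labels give the plasmid amount only as a range of 2 to 28 µg. The share of cells that took up the plasmid is not given in the sources used here, and in such bulk samples fewer expressing cells and less RNA per cell cannot be told apart.

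p53 is a transcription factor that accumulates when cells meet DNA damage or other stress and switches on genes that stop the cell cycle, repair DNA or start apoptosis. MDM2 is both a target of p53 and the ubiquitin ligase that leads p53 to degradation, which closes a negative feedback loop. In HEK293T cells the large T antigen binds p53, so the activity of p53 in this line is known to be abnormal. The binding site of p53 consists of a pair of decamers, each with purines, a core of C and G around A or T bases, and pyrimidines.

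Promoter sequences from 250 bases before to 50 bases after annotated start sites were available from RefSeq (build GRCh38.p14) for 29 of the 39 genes, in 42 windows. A search for the complete p53 response element, meaning both decamers without mismatch and 0 to 13 bases between them, found it in the windows of 1 member, DDB2. This was 1 of 42 member windows (2.38%), against 10 of 35116 windows (0.0285%) over the whole table. A single decamer was present in the windows of 7 of the 29 members (24.1%), against 2202 of 27305 genes (8.06%). The members were listed as p53 regulators and targets, so their higher shares are not independent evidence. The consensus reads the same on both strands, so 1 pass covered both. A match is a description of the letters and was not tested for binding. The stretches are printed from 5′ to 3′ on the strand of the gene, to show the letters of each match in these 7 genes. The capitals mark the decamer, or both decamers where they adjoin with at most 2 mismatches (FAS and AEN). For DDB2 they mark the complete element of 21 bases, including 1 base between its decamers.
DDB2, plus strand, chr11:47214959-47215019: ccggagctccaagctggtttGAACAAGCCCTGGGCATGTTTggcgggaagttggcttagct
FAS, plus strand, chr10:88991289-88991348: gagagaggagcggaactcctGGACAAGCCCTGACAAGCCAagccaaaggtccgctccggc
AEN, plus strand, chr15:88621286-88621345: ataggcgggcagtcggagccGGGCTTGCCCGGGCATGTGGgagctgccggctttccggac
PLK2, minus strand, chr5:58460189-58460238: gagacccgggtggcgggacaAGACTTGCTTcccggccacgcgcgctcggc
SESN1, minus strand, chr6:109009008-109009057: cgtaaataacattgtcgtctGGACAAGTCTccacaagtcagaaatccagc
FDXR, minus strand, chr17:74872976-74873025: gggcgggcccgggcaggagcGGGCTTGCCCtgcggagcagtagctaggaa
RPS27L, minus strand, chr15:63157507-63157556: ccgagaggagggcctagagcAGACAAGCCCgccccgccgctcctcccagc

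The DDB2 element began 5 bases after 1 of the gene's 2 annotated start sites, and the parts in capitals of the other genes began between 11 bases (FDXR) and 132 bases (PLK2) before an annotated start site. The windows of 22 members held no decamer, and the other 10 members were not searched. Sites outside these windows, or sites with mismatches in both decamers, would have been missed. The lack of a match therefore does not mean that a gene, MDM2, CDKN1A and BBC3 included, has no p53 site. Whether a match goes with the difference between the groups was not tested.

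Libraries held between 40851783 and 67122986 counts, with more counts for ppk1 than for the empty vector in every pair. The cells expressed the genes fixed as a check of the line: VIM lay between 478 and 538 CPM (counts scaled to the size of each library), NEFM between 118 and 194, and PAX2 and LHX1 between 2.55 and 4.76. Of 9 markers of other cell types, PTPRC, CD3E, PECAM1, DCN and HBB stayed at 9 counts or fewer in every library, and ALB was at 34 or fewer. ALB was at 0.568, 0.497 and 0.832 CPM in the empty vector libraries B, C and D and at 0.225, 0.271 and 0.215 in the ppk1 libraries, so its groups did not overlap. Of the genes of the line itself, KRT18 was at 46, 43.2 and 42.3 CPM with the empty vector and higher in every ppk1 library, at 51.4, 56.5 and 52.1. The part of either in the results was not tested. COL1A1 (15.4 to 20.6 CPM), CDH1 (6.68 to 8.52) and EPCAM (2.03 to 2.91) were detected at like levels in both groups. Reads of ppk1 and of the large T antigen were not analysed here.

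The comparison asks which transcripts differ when the polyphosphate kinase is expressed. Many p53 targets were lower with ppk1 by modest amounts: 17 of the 38 members tested fell, by 14.9% (ZMAT3) to 48.8% (GDF15), and 1, SESN2, rose by 23.6%. A gene was called when its adjusted p (Benjamini-Hochberg, over all 19574 genes tested) was below 0.05 in edgeR's quasi-likelihood test with the letter as a block. In that fit 9.08% of all genes were called, 4.04% higher and 5.04% lower. The median log2 fold change was -0.24 over the 38 members and 0.01 over all genes tested. In each pair most members were lower with ppk1: 8 of 38 were higher in B, 7 in C and 5 in D. CPM values are scaled by the TMM method, as are all fold changes.

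**Figure D1:**
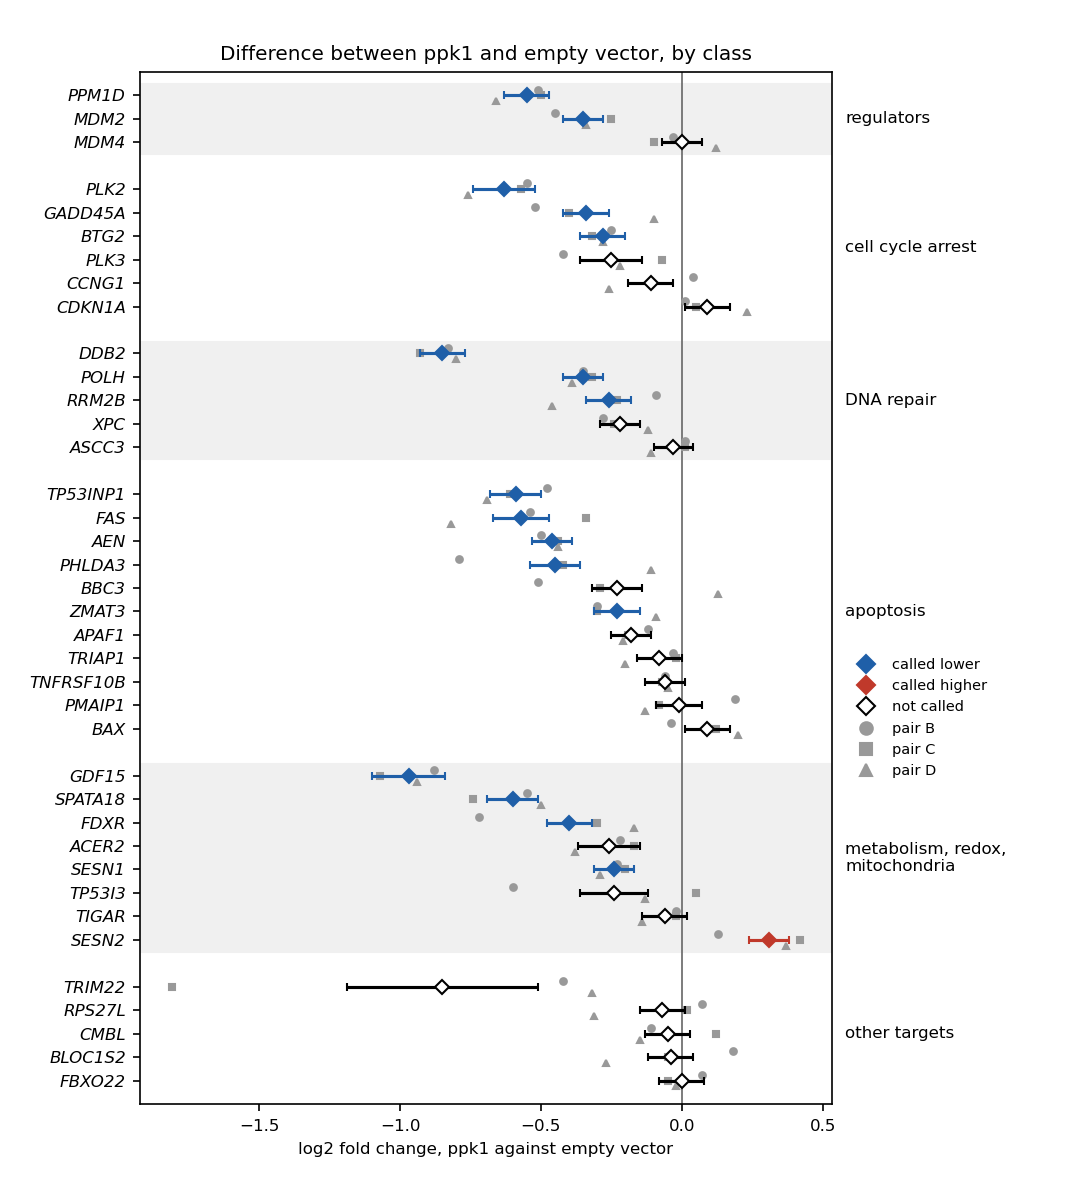
Log2 fold change of each tested member (x axis, diamonds with bars of 1 standard error) by class, with the difference of each matched pair as grey symbols. Blue diamonds mark the 17 members called lower, the red diamond marks SESN2, and open diamonds mark the 20 not called.

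Without the block, 9 members were called, all lower, against 2.4% of all genes. Without pair C, 11 were called, all lower, against 2.06% of all genes; without pair B 16 were called, against 12.5%, and without pair D 19, against 9.06%. DESeq2 did not call RRM2B, ZMAT3 or SESN1, ZMAT3 and SESN1 were not called without the filter on low counts, and ZMAT3 was not called with offsets for GC content and length, where 20 members were called against 15.3% of all genes. The 8 members AEN, DDB2, FAS, GDF15, PLK2, PPM1D, SPATA18 and TP53INP1 were called lower in the main fit and under all 10 alternatives run. The split of calls over all genes moved with scaling (791 higher and 986 lower with TMM, 422 and 933 with upper-quartile scaling, 1583 and 1389 with the offsets), while the members stayed at 1 higher and 17 to 19 lower under these.

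Among the regulators, MDM2 and PPM1D were lower and MDM4 was level between the groups. MDM2 (ENSG00000135679, chromosome 12) was at 197, 183 and 166 CPM in the empty vector libraries B, C and D and at 144, 154 and 131 in the ppk1 libraries. Every ppk1 library lay below every empty vector library. Its log2 fold change was -0.35 (SE 0.07), a fall of 21.3%, and it was not called without the block. PPM1D (ENSG00000170836, chromosome 17) encodes the phosphatase WIP1, which removes activating phosphates from p53 and from the damage kinases. It was at 66.1, 68.9 and 71.5 CPM with the empty vector and 46.4, 48.8 and 45.3 with ppk1. The groups were far apart against their spread, and the log2 fold change was -0.55 (SE 0.08). MDM4, a relative of MDM2 that binds and masks p53, was at 160, 150 and 138 CPM with the empty vector and 157, 140 and 150 with ppk1. Its groups overlapped, it was higher in 1 of 3 pairs, and the fitted fold was 0.997. Exons of AC025423.2 cover 3.3% of MDM2's exon sequence on the same strand. On the opposite strand the largest overlap with a single gene, AC025423.4, is 5.9%. Whether the counting used the strand is not given in the sources used here.

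**Figure D2:**
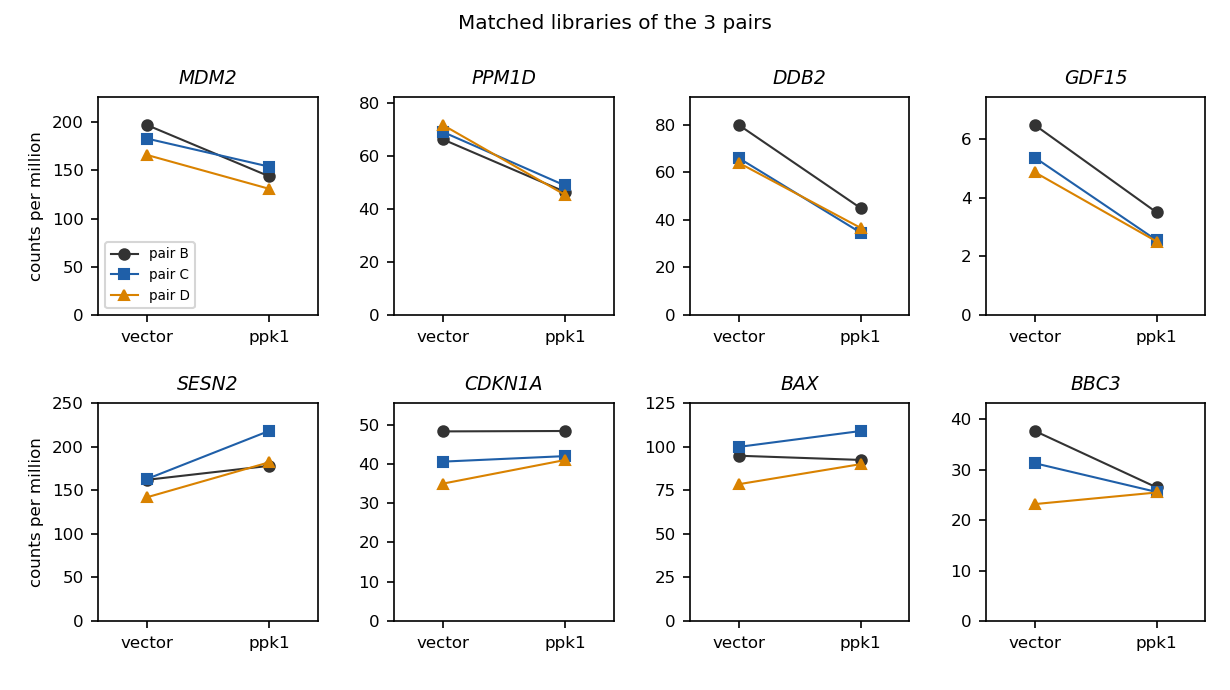
CPM (y axes, from 0) of 8 members in the matched libraries, with a line for each pair from empty vector to ppk1. All 3 lines fall for MDM2, PPM1D, DDB2 and GDF15 and rise for SESN2, whereas BBC3 falls in pairs B and C and not in D.

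The calls divided the arrest genes, though BTG2 (called, -0.28) and PLK3 (not called, -0.25) had like log2 fold changes. PLK2, GADD45A and BTG2 were lower, and CDKN1A, CCNG1 and PLK3 were not called. CDKN1A (ENSG00000124762, chromosome 6) encodes p21, the inhibitor of cyclin-dependent kinases through which p53 holds cells in G1. It was at 48.3, 40.6 and 35 CPM with the empty vector and 48.4, 42 and 41 with ppk1. The groups overlapped almost completely, and the log2 fold change was 0.09 (SE 0.08). All 3 pairs were above 0, at 0.01 in B, 0.05 in C and 0.23 in D. Exons of the antisense transcript DINOL cover 4.8% of its exon sequence. PLK2, a polo-like kinase of the stress response, was at 6.29, 7.49 and 7.91 CPM with the empty vector and 4.28, 5.03 and 4.64 with ppk1. Its 3 ppk1 values all lay below the 3 others, with a log2 fold change of -0.63 (SE 0.11).

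GADD45A, a growth arrest and DNA damage gene, was at 81.6, 64.8 and 61.5 CPM with the empty vector and 56.9, 49.3 and 57.6 with ppk1. The groups did not overlap, but the difference was small in pair D (-0.10, against -0.52 in B and -0.40 in C on the log2 scale). BTG2, an antiproliferative cofactor of mRNA deadenylation, was at 41.1, 37.5 and 36 CPM with the empty vector and 34.6, 30.1 and 29.6 with ppk1. Its differences were alike in the pairs, from -0.32 to -0.25 on the log2 scale. GADD45A and BTG2 were not called without the block or without pair C. CCNG1, the cyclin G1 gene, ranged from 274 to 333 CPM with the empty vector and from 259 to 282 with ppk1, a log2 fold change of -0.11 (SE 0.08). PLK3, another polo-like kinase, had -0.25 (SE 0.11), with all 3 pairs below 0 and overlapping groups, and was called only with the offsets for GC content and length.

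The DNA repair genes held the second largest fall of a called member. DDB2 (ENSG00000134574, chromosome 11) encodes the damage sensor of nucleotide excision repair that binds ultraviolet lesions, and its promoter window is the 1 with the complete element printed above. It was at 79.8, 65.9 and 63.9 CPM with the empty vector and 44.9, 34.6 and 36.6 with ppk1. The highest ppk1 library was far below the lowest empty vector library. The log2 fold change was -0.85 (SE 0.08), a fall of 44.6%, and the pairs gave -0.83, -0.93 and -0.80.

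POLH, the polymerase that copies past ultraviolet damage, was at 55.2, 51.2 and 49.5 CPM with the empty vector and 43.4, 41.1 and 37.8 with ppk1. The groups did not overlap, and the log2 fold change was -0.35 (SE 0.07). RRM2B, the p53-inducible subunit of ribonucleotide reductase, was at 55, 59.8 and 66 CPM with the empty vector and 51.6, 51 and 48.1 with ppk1. Its difference varied most in this class, from -0.09 in pair B to -0.46 in pair D. POLH was not called without pair C, and RRM2B was not called without the block, without pair C or without pair D. XPC, the partner of DDB2 in finding lesions, had groups that did not overlap (103 to 119 and 95.4 to 97.7 CPM) and a log2 fold change of -0.22 (SE 0.07). It missed the threshold, but was called without pair D, with RLE or upper-quartile scaling and with the offsets for GC content and length. Exons of another gene cover 23.8% of its sequence on the opposite strand. ASCC3, a helicase of alkylation repair, was level (-0.03, SE 0.07).

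The calls also divided the apoptosis genes, though ZMAT3 (called) and BBC3 (not called) had the same log2 fold change of -0.23. Lower were FAS, TP53INP1, AEN, PHLDA3 and ZMAT3, whereas BAX, BBC3, PMAIP1, APAF1, TRIAP1 and TNFRSF10B were not called. BAX, the BCL-2 family protein that opens pores in the outer mitochondrial membrane, was at 94.8, 99.9 and 78.5 CPM with the empty vector and 92.4, 109 and 90 with ppk1. The groups overlapped, with a log2 fold change of 0.09 (SE 0.08). BBC3 encodes PUMA, which frees BAX from its inhibitors, and was at 37.7, 31.3 and 23.2 CPM with the empty vector and 26.5, 25.6 and 25.5 with ppk1. The ppk1 libraries were nearly equal and lay inside the range of the empty vector libraries, so the log2 fold change of -0.23 (SE 0.09) combined -0.51 in pair B with 0.13 in pair D. Without pair D it was -0.43 and called, without pair B it was -0.08, and it was also called with the offsets.

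FAS, the death receptor, was at 10.9, 10.3 and 13.3 CPM with the empty vector and 7.5, 8.14 and 7.51 with ppk1. These groups did not overlap, and the log2 fold change was -0.57 (SE 0.10). Exons of ACTA2 cover 8.9% of the FAS exon sequence on the opposite strand. TP53INP1, a nuclear stress protein that promotes p53 activity, was at 21.8, 19.9 and 21.8 CPM with the empty vector and 15.6, 13 and 13.5 with ppk1, a log2 fold change of -0.59 (SE 0.09). AEN, an exonuclease of apoptotic DNA breakdown, was at 170, 170 and 157 CPM with the empty vector and 120, 126 and 116 with ppk1. AEN had the most even response of the 5, from -0.50 to -0.44 in the pairs, around a fitted -0.46 (SE 0.07).

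PHLDA3, which competes with AKT for membrane lipids, was at 38.4, 30.9 and 23.4 CPM with the empty vector and 22.2, 23.2 and 21.7 with ppk1. Its ppk1 libraries were close together while its empty vector libraries were not, and the pair differences were -0.79, -0.42 and -0.11. The fitted value was -0.45 (SE 0.09); it was -0.27 without pair B, and the gene was not called without the block. Exons of another gene cover 19.1% of PHLDA3 on the same strand, so its value is uncertain. ZMAT3, a zinc finger RNA-binding protein, was at 45, 40.5 and 34.2 CPM with the empty vector and 36.6, 32.9 and 32 with ppk1. It was the 1 member called lower whose groups overlapped, and it was not called without the block, without pair B or without pair C.

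Of the other apoptosis genes, APAF1, the scaffold of the caspase-9 apoptosome, had -0.18 (SE 0.07), and its groups did not overlap (51.8 to 54.8 and 44.7 to 48.3 CPM). Exons of ANKS1B cover 9.5% of the APAF1 exon sequence on the opposite strand. TRIAP1, an inhibitor of apoptosis, had -0.08, and TNFRSF10B, a receptor of the death ligand TRAIL, had -0.06. PMAIP1, which encodes the BH3-only protein NOXA, had -0.01, with 91.9 to 115 CPM with the empty vector and 87.3 to 106 with ppk1. TNFRSF10A, another TRAIL receptor, had no count in 5 libraries and 1 count in ppk1 library B, did not pass the filter on low counts and was not tested. A count of 0 allows up to 3 counts, or 0.0734 CPM in the shallowest library.

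**Figure D3:**
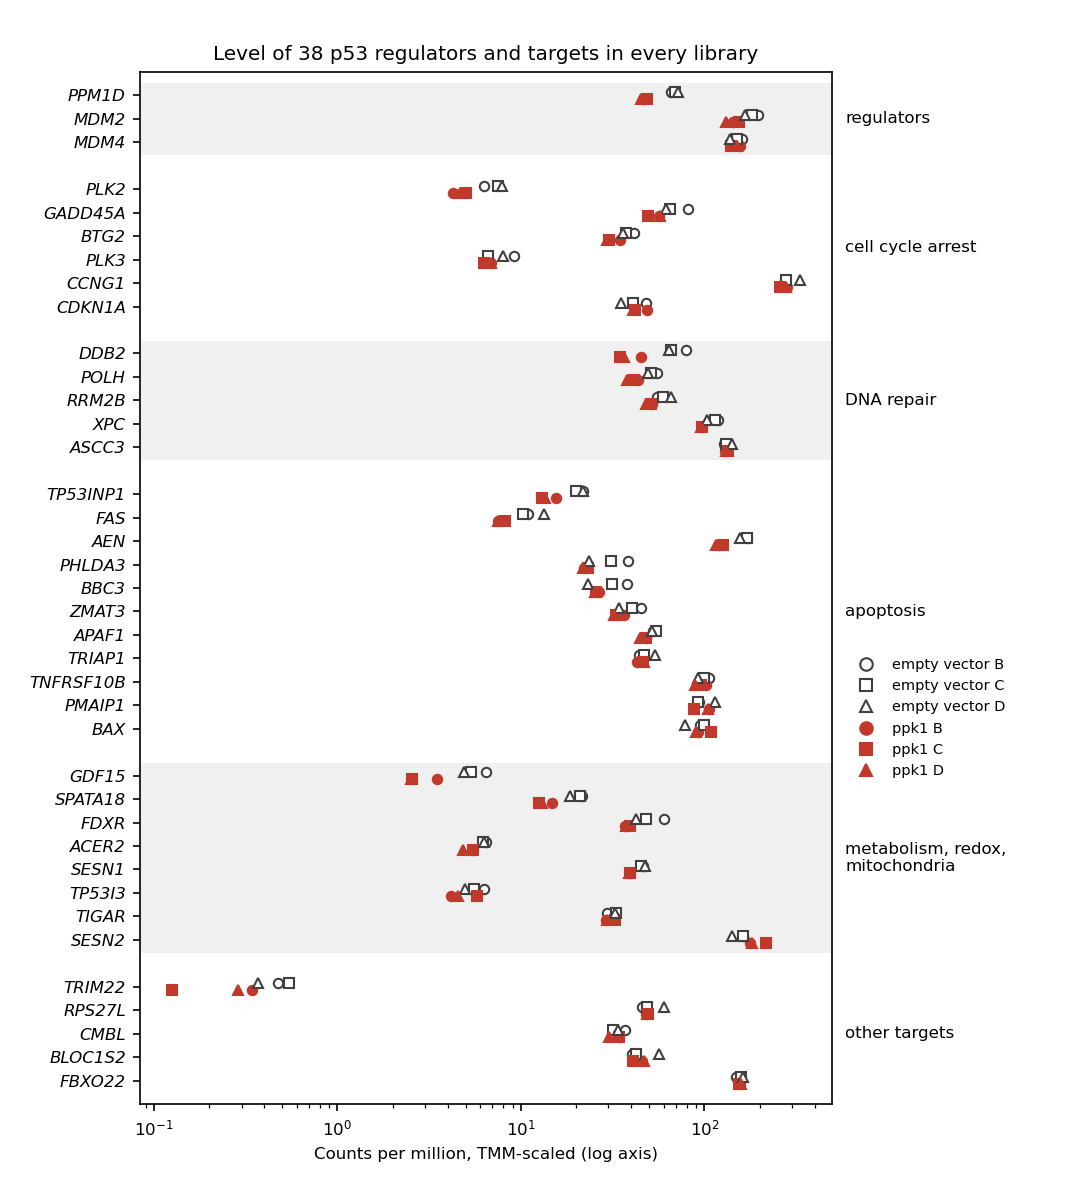
CPM (x axis, log scale) of the 38 tested members in all 6 libraries, empty vector as open symbols and ppk1 as red symbols, with the letter as the shape. TRIM22 lies below 1 CPM. For 21 of the 38 members (55.3%) the CPM values of the groups do not overlap, against 25.6% of all genes tested.

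Among the genes of metabolism, redox control and mitochondria, GDF15, SPATA18, FDXR and SESN1 were lower, and SESN2 was higher. GDF15 (ENSG00000130513, chromosome 19), a secreted stress cytokine, had the largest fall of the called members. It was at 6.48, 5.37 and 4.87 CPM with the empty vector and 3.5, 2.55 and 2.51 with ppk1, with a log2 fold change of -0.97 (SE 0.13). The groups did not overlap, and the pairs gave -0.88, -1.07 and -0.94. SPATA18, which takes part in the removal of damaged mitochondrial proteins, was at 21.6, 20.9 and 18.5 CPM with the empty vector and 14.8, 12.5 and 13.1 with ppk1. Its groups were likewise apart, with a log2 fold change of -0.60 (SE 0.09).

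FDXR, the ferredoxin reductase of mitochondria, was at 60.6, 48.3 and 42.2 CPM with the empty vector and 36.9, 39.1 and 37.6 with ppk1. As for PHLDA3, the ppk1 libraries were close together and the empty vector libraries were not, so the difference ran from -0.72 in pair B to -0.17 in pair D. The fitted value was -0.40 (SE 0.08), and it was -0.24 and not called without pair B, and not called without the block. The sestrins are stress proteins that restrain mTORC1, and these 2 family members went in opposite directions. SESN1 was at 46.2, 45.1 and 47.4 CPM with the empty vector and 39.4, 39.2 and 38.8 with ppk1, a log2 fold change of -0.24 (SE 0.07) with a very small spread in both groups.

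SESN2 (ENSG00000130766, chromosome 1) was at 162, 163 and 142 CPM with the empty vector and 178, 218 and 182 with ppk1. All ppk1 libraries were above all empty vector libraries, and the log2 fold change was 0.31 (SE 0.07), with 0.13, 0.42 and 0.37 in the pairs. SESN2 and GDF15 are known to respond to the amino acid and endoplasmic reticulum stress factor ATF4 as well as to p53. Neither SESN1 nor SESN2 was called without the block or without pair C. TP53I3, a quinone oxidoreductase, was not called (-0.24, SE 0.12), and its value rested on pair B, with -0.60, 0.05 and -0.13 in the pairs, -0.03 without B and -0.38 without C. Also not called were ACER2, an alkaline ceramidase (-0.26, SE 0.11) and TIGAR, a phosphatase that lowers glycolytic flux (-0.06, SE 0.08). Exons of AC008012.1 cover 42.6% of TIGAR on the same strand, and 12.2% of the ACER2 transcript sequence also occurs in AC017081.1, so both values are uncertain.

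None of the other 5 targets was called by edgeR or DESeq2. In edgeR's test 1 of them had an unadjusted p below 0.05, against 4655 of 19574 genes. RPS27L, a ribosomal protein relative, had -0.07 (SE 0.08), BLOC1S2, a lysosome-positioning subunit, -0.04, and CMBL, a hydrolase, -0.05. FBXO22, a ubiquitin ligase subunit, ranged from 149 to 162 CPM with the empty vector and from 154 to 159 with ppk1. Exons of NRG4 cover 16.2% of the FBXO22 exon sequence on the opposite strand. TRIM22, an interferon-inducible antiviral gene, rested on 6 to 25 counts per library. Its log2 fold change of -0.85 had an SE of 0.34, with -1.81 in pair C against -0.42 in B and -0.32 in D, and was -0.41 without C. Exons of OR56B1 cover 10.7% of its exon sequence on the same strand.

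By class, the members called lower were 2 of 3 regulators, 3 of 6 arrest genes and 3 of 5 repair genes. They were also 5 of 11 apoptosis genes, 4 of 8 metabolic genes and 0 of the 5 other targets. Another metabolic gene, SESN2, was called higher. Over all genes tested, 5.04% were called lower and 4.04% higher. The medians of the first 5 of these classes were close, at -0.35, -0.26, -0.26, -0.23 and -0.25 on the log2 scale. The median of the other targets was -0.05. Differences between classes were not tested. The ppk1 and empty vector libraries did not overlap for 21 of the 38 members, 16 of them among the 17 called lower, against 25.6% of all genes tested. Of the 20 members not called, 18 had a log2 fold change below 0, which says nothing for any single gene. Over all genes tested, 53.1% had a log2 fold change above 0.

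Per transcript length, members differed widely in level in the empty vector libraries. CPM per kilobase of the principal transcript in GENCODE release 29 (RPKM computed from the counts) gave a median of 14.6 over the 38 members and 4.62 over all genes tested. The highest were CCNG1 (120 ± 13.3, SD, n = 3) and BAX (115 ± 14.1), which did not differ beyond their spread. MDM2 (72.1 ± 6.04) came next, followed by AEN (53.1 ± 2.39) and PMAIP1 (51.4 ± 6.71), which again lay within their spread. CDKN1A was at 18.2 ± 2.95, near BBC3 (16.7 ± 3.96). GDF15 (4.64 ± 0.685), FAS (4.49 ± 0.622) and PLK2 (2.44 ± 0.284) were low among the members, the first 2 of these near the median of all genes, and TRIM22 was lowest of the tested members at 0.154 ± 0.0294. These levels depend on which transcript the cells use, which gene counts do not show. The principal transcript of MDM2 has 2523 bases, against 13284 for all its annotated exons, and that of BAX has 793 against 2587. The high places of these 2 genes are therefore uncertain.

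The matched letters, which the choice of members did not use, were compared in the same fit. In edgeR's test of the letter, 0 of 38 members were called, against 58 of all genes (0.296%), and DESeq2 called 0 members. In edgeR's test, 11 of the 38 members had an unadjusted p below 0.05, against 2504 of 19574 genes. With offsets for GC content and length 5 members were called, against 1.5% of all genes in that fit. Among the empty vector libraries, B was the highest for 19 of the 38 members and D the lowest for 21. Over all genes tested, B was highest for 7134 of 19574 and D lowest for 7934. Among the ppk1 libraries B was likewise the highest for 20 members and D the lowest for 18, against 5995 and 5179 of all genes. The coefficient of variation had a median of 9.6% in the empty vector and 6.89% in the ppk1 libraries over the members, and 9.71% and 7.48% over all genes. It was larger in the empty vector group for 27 of the 38 members (71.1%) and for 57.8% of all genes. BBC3, PHLDA3 and FDXR, whose values are given above, were of this kind.

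Another 65 genes widely described as p53 targets were read from the same fit, as a description. Of the 62 tested, 11 were lower and 1 was higher, against 5.04% and 4.04% of all genes, and their median log2 fold change was -0.14, against 0.01. The 6 with the smallest adjusted p in edgeR's test all fell. ZNF79, a zinc finger gene, was at 16.4, 18 and 16.2 CPM with the empty vector and 8.04, 10.2 and 8.97 with ppk1 (log2 fold change -0.90, SE 0.09, adjusted p 3.61e-10). LIF, the cytokine leukaemia inhibitory factor, was at 9.39, 8.33 and 8.25 CPM with the empty vector and 6.18, 5.24 and 4.62 with ppk1 (log2 fold change -0.70, SE 0.11). The groups did not overlap for either gene.

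PGF, placental growth factor, had a log2 fold change of -0.57, GRHL3, a grainyhead-like factor, of -0.97 on 27 to 89 counts, ANKRA2, an ankyrin repeat protein, of -0.41, and DCP1B, an mRNA decapping cofactor, of -0.39. Their edgeR adjusted p-values ran from 9.23e-05 (PGF) to 0.00105 (DCP1B). The 1 gene of this list that rose, SERTAD1, a cofactor of CDK4 and E2F, was singled out after its values were seen. It was at 4.92, 5.21 and 4.77 CPM with the empty vector and 5.73, 8.03 and 6.03 with ppk1 (log2 fold change 0.39, edgeR adjusted p 0.0204), and it was not called with DESeq2 or with upper-quartile scaling. Without the block 5 genes of the list were called and without pair C 4, all lower.

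**Figure D4:**
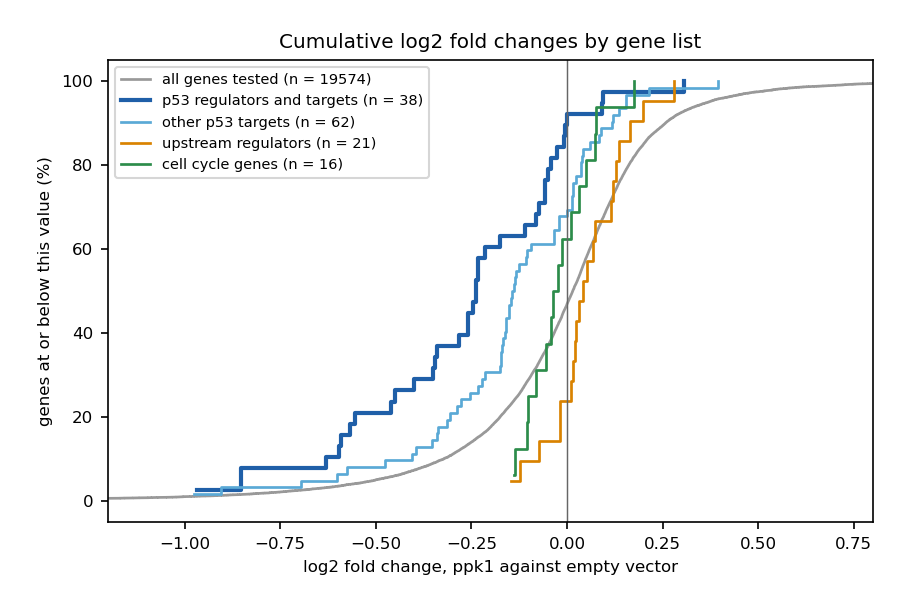
Cumulative percentage of genes (y axis) at or below each log2 fold change (x axis, drawn from -1.2 to 0.8) in the main fit for the members, 3 other lists and all genes tested. The curve of the 38 members lies to the left of that of all genes, with medians of -0.24 and 0.01, and that of the 62 other targets lies between them at -0.14.

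The genes upstream of p53 and the cell cycle genes had small log2 fold changes, those of the upstream genes from -0.15 to 0.28. For 16 of the 21 upstream genes (76.2%) the log2 fold change was above 0, against 53.1% of all genes tested. The 21 act on p53 or MDM2 and include kinases, ubiquitin ligases, acetyltransferases and ribosomal proteins. Of them 1 was called (4.76%), against 9.08% of all genes. This was TRIM28, a corepressor that works with MDM2, at 486, 496 and 416 CPM with the empty vector and 513, 639 and 547 with ppk1 (log2 fold change 0.28, edgeR adjusted p 0.0139). It was named after its values were seen, and no gene of the list was called by edgeR without pair C, without pair D or with the block left out, where 1, 4 and 2 genes, in that order, had an unadjusted p below 0.05. The like counts over all genes were not taken in these 3 fits. Of 16 cell cycle genes known to be repressed when p21 is induced, none was called by edgeR or DESeq2. In edgeR's test 1 of the 16 had an unadjusted p below 0.05, against 4655 of 19574 genes. Without pair B 1, FOXM1, was called higher. Their log2 fold changes ran from -0.14 to 0.18, with a median of -0.03. Where 9.08% of all genes were called, lists as short as these 2 would hold few calls, so the small counts do not set them apart.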

How the data were processed

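The authors deposited 1 table of whole-number read counts per Ensembl gene for 6 libraries. The submitters' processing notes name bcl2fastq 2.20, Trimmomatic, STAR, HTSeq, edgeR, DESeq, Cufflinks and Cuffdiff, without their roles. The genome build, annotation, strand setting and treatment of multiply mapped reads are not given in the sources used here, so values of overlapping or similar genes are uncertain. All 6 columns matched a sample by name.

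Counts were tested with edgeR 4.0.16 in R 4.3.3 (glmQLFit, glmQLFTest; filterByExpr with a minimum count of 10; TMM; adjusted p below 0.05), after the steps had been tested on simulated data. The letter was a block because the design text states that libraries of a letter are matched. After the group means were subtracted, the libraries of a letter correlated across 19574 genes at 0.109 (B), 0.135 (C) and 0.0476 (D), against -0.12 to -0.00506 between letters. Subtracting the means ties these values together, so positive values within letters push those between letters below 0. The 2 ranges are therefore not independent. Standard errors were taken as the size of the log2 fold change over the square root of F. Pair differences use log2 CPM with a prior count of 2. GENCODE release 29 gave lengths, overlaps and shared stretches of 50 bases.

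The alternatives were the fit without the block, RLE and upper-quartile scaling, no filter, a mean of at least 50 counts, DESeq2 1.42.0 and omission of each pair. Offsets for GC content and transcript length, and the promoter search with mismatches, were added after seeing the data. The members and lists were chosen with earlier results of these data known. Every member is named. Values per library are given for called members and for MDM2, MDM4, PPM1D, CDKN1A, BAX and BBC3, and for up to 6 called genes of each other list. Totals of 40851783 to 67122986 counts mean that 3 counts, the limit a count of 0 allows, equal 0.0447 to 0.0734 CPM, for counting error only.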

Additional observations from a re-analysis of the deposited data

How the results depend on the processing

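Without the replicate block, 470 genes were called in place of 1777, 9 members in place of 18, 5 other p53 targets in place of 12 and 0 upstream regulators in place of 1 (edgeR; 2 at an unadjusted p below 0.05). DESeq2 called 754 genes. With GC content and length offsets 2972 genes (15.3%), 20 of 62 other p53 targets and 3 of 21 upstream regulators were called. By letter these offsets called 5 members, against 1.5% of all genes. Without a low-count filter 1 member was called by letter. Across the fits without replicate B, C or D, all genes called ran from 406 (2.06%) to 2435 (12.5%). Members called ran from 11 to 19 of 38 and other p53 targets from 4 to 15 of 62. Upstream regulators called ran from 0 to 2 of 21 and cell cycle genes from 0 to 1 of 16. The lowest of the first 3 counts came without C. The cause was not tested. A single decamer gave 7 members with a promoter match in place of 1, and adjoining decamers with up to 2 mismatches gave 2 (FAS and AEN); that search allowed no bases between the decamers and so left out DDB2. Of 180 values of the 18 called members under the 10 alternatives, 180 kept their sign and 155 their call. Of the members, TRIM22 and TNFRSF10A were limited by depth.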

Other observations

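Besides DDB2, 3 genes whose promoter window held the complete p53 response element were found in the count table by the same symbol and passed the filter on low counts. They were chosen from sequence alone, by the search of all promoter windows. PTCHD4, a patched-domain gene described as a p53 target, was at 0.265, 0.406 and 0.416 CPM with the empty vector and 0.135, 0.0417 and 0.144 with ppk1. The groups did not overlap, but the values rest on 14 to 18 and 2 to 9 counts. The gene passed the filter only through the empty vector libraries, where it is higher, so its difference is given without a test. Neither MCC, a colorectal cancer gene, nor DYNC2H1, the heavy chain of the ciliary dynein, was called. Their log2 fold changes were -0.14 (SE 0.08) and -0.04 (SE 0.07), with adjusted p-values of 0.288 and 0.785 in edgeR's test.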
